A study of Mus musculus with 12 samples.

Results

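A set of 9 genes that mark myelin and mature oligodendrocytes were followed through mouse brain RNA-seq libraries: Mbp, Mog, Mag, Cnp, Mobp, Mal, Ugt8a, Cldn11 and Opalin. They were chosen by name as known myelin genes, and all 9 matched an Ensembl identifier among the 55487 in the count files. The libraries came from 12 individual male mice, in 4 groups of 3, bred around an allele in which exon 7 of Auts2, a regulator of brain development, is flanked by loxP sites. At postnatal day 0 (P0), forebrain was taken from mice labelled cmv-cre_auts2-ex7koko, called Cmv-cre knockouts here, and from littermates labelled BL6 WTLM, called wild type. At postnatal day 14 (P14), hippocampus was taken from mice labelled nes-cre_auts2-ex7koko, called Nes-cre knockouts, and from controls labelled auts2-ex7-fl-het, which carry 1 floxed allele. Cmv-cre is active throughout the body, and Nes-cre in neural progenitors and the neurons and glia they give rise to. The labels do not say whether the floxed heterozygous controls carry Nes-cre. The 2 knockouts are thus never seen in the same tissue at the same age.

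Myelin is the layered membrane that oligodendrocytes wrap around axons in the central nervous system, and Schwann cells in peripheral nerve. Oligodendrocyte precursors pass through a premyelinating stage, and the genes for myelin proteins and for the enzymes of myelin lipids are switched on together as the cells mature. In rodents this takes place mostly after birth, and MYRF and SOX10 are transcription factors needed for it.

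The promoters of 3 members are shown. Each line gives the 250 bases before a gene's start, from RefSeq on GRCm38.p6. Mag and Cnp are shown because they hold the letters CTGGCAC, a core of the motif that MYRF binds, and Mobp because it had the largest difference between P14 and P0 among the 8 members with more than 3 counts in the P0 wild types, and holds none of the motifs searched. Capitals mark matches on either strand to any of the motifs searched.
Mag, chr7:30914864-30915113, minus strand: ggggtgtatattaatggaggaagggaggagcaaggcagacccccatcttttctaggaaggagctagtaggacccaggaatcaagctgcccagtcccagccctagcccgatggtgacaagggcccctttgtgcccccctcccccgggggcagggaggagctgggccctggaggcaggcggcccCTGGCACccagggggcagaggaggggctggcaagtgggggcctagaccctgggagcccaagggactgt
Cnp, chr11:100574689-100574938, plus strand: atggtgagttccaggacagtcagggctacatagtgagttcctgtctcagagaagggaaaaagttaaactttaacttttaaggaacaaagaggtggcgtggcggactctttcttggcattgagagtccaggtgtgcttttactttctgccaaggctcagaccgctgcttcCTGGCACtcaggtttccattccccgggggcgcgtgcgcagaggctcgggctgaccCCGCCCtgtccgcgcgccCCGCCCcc
Mobp, chr9:120149492-120149741, plus strand: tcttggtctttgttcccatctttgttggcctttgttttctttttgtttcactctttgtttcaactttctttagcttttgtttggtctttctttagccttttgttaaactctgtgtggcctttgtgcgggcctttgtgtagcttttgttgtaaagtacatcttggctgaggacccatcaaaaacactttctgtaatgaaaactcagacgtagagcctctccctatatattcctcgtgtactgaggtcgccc
The motifs were searched in windows of 300 bases, from 250 before to 50 after each start, in 32851 RefSeq promoters. CTGGCAC was found at Mag, Cnp and Opalin, 3 of the 8 members searched, and in 5.01% of all promoters. Mbp was not searched. The Opalin match lies after the start and is not printed. GGGCGG, the SP1 box in capitals at Cnp, was found at 3 of 8 members (Cnp, Ugt8a and Cldn11) and in 35.7% of all promoters. CAGCTG, an E-box, was found at Opalin only among the 8 and in 16.3% of all. ACAAT, a core bound by SOX factors, and TATAAA were found at none of the 8, and in 31.0% and 13.6% of all promoters. Only the letters ACAAT were searched for SOX factors, so other sites they may bind were not covered. A member was counted once if any of its promoters held a match, while the shares over all are of single promoters, 32851 for 27025 genes. No motif searched contains another. These are matches of letters and not measured binding.

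The P0 libraries held 11247150 to 16796797 counts each, and the P14 libraries 16830720 to 23340621. Values are given as counts per 1000000 counts (CPM) on library sizes scaled over all 12 libraries, in the order of libraries 1, 2 and 3 of a group, and the numbers, given in accession order, do not pair animals between groups. Levels of different genes are compared as RPKM, which is CPM per 1000 bases of exon. Auts2 itself, whose gene-level counts do not isolate exon 7, did not pass the test at P0 (log2 fold change 0.16, edgeR adjusted p 0.362) or at P14 (-0.30, edgeR adjusted p 0.111). Replicates were separate animals.

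The myelin genes were low in the P0 forebrain and high in the P14 hippocampus, in every library and for every member. In the fit that compared the 3 floxed heterozygous controls at P14 with the 3 wild types at P0, all 9 members were called higher at P14 (edgeR quasi-likelihood test, Benjamini-Hochberg adjusted p under 0.05), against 32.3% of the 18189 genes tested. The median log2 difference was 5.55 over the members and -0.004 over all genes tested. Tissue, age and control genotype all differ between these groups, so their parts in the difference cannot be told apart. In whole tissue, fewer cells of a type and less RNA per cell cannot be told apart either.

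Mbp, on chromosome 18, encodes myelin basic protein, which holds the cytoplasmic faces of compact myelin together. It stood at 45.03, 44.95 and 42.4 CPM in the P0 wild types and at 42.3, 37.8 and 38.9 CPM in the Cmv-cre knockouts. At P14 it stood at 2463, 2832 and 1981 CPM in the floxed heterozygotes and 1459, 2947 and 2007 CPM in the Nes-cre knockouts. The lowest P14 library was thus far above the highest P0 library, and at P14 the knockouts held both the lowest and the highest value. Between the control groups Mbp was 55.0-fold higher at P14 (95% interval 35.4 to 85.4, edgeR adjusted p 5.15e-08).

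Mobp, on chromosome 9 from 120149707 to 120181484, encodes another small basic protein of compact myelin. It was almost absent at P0, with 2, 4 and 20 counts in the wild types and 4, 6 and 22 counts in the Cmv-cre knockouts. At P14 it reached 514, 593 and 381 CPM in the floxed heterozygotes and 249, 579 and 364 CPM in the Nes-cre knockouts. Its difference between the control groups had the highest point estimate of the 8 members with more than 3 counts over the P0 wild types, 804-fold (95% interval 314 to 2055, edgeR adjusted p 7.41e-07). Its exons share 79 bases, 1.15% of their length, with Gm38642 on the same strand.

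Mal, on chromosome 2 from 127633226 to 127656695, encodes a membrane protein that sorts other proteins to myelin. It stood at 1.76, 1.46 and 2.66 CPM in the P0 wild types and at 3.18, 1.66 and 2.48 CPM in the Cmv-cre knockouts. The P14 values were 92.5, 120.4 and 74.3 CPM in the floxed heterozygotes and 40.6, 105.8 and 56.3 CPM in the Nes-cre knockouts. The genotypes overlapped at both ages. The difference between the control groups was 46.8-fold (95% interval 21.1 to 103.7, edgeR adjusted p 1.13e-05).

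Cnp, on chromosome 11 from 100574904 to 100591729, encodes the phosphodiesterase that lines the cytoplasmic channels of myelin. It had the highest level per length in the P0 wild types, at 30.2, 34.2 and 31.2 CPM, and stood at 24.8, 22.1 and 29.8 CPM in the Cmv-cre knockouts. At P14 its levels were 445, 520.3 and 387 CPM in the floxed heterozygotes and 276, 462 and 387 CPM in the Nes-cre knockouts. At P0 every knockout library lay below every wild-type library, while at P14 they overlapped. Between the control groups Cnp was 14.1-fold higher at P14 (log2 3.82, 95% interval 10.4-fold to 19.3-fold, edgeR adjusted p 1.56e-08). Its exons share 154 bases, 4.23% of their length, with Dnajc7 on the opposite strand. In the deposited counts of a single strand, the log2 difference was 2.73, and the part of the overlap in this was not tested.

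Mag, on chromosome 7 from 30899176 to 30914873, encodes the adhesion protein of the myelin layer facing the axon. It stood at 2.10, 3.40 and 3.60 CPM in the P0 wild types and at 1.43, 1.82 and 3.33 CPM in the Cmv-cre knockouts. The P14 libraries held 168, 203 and 132 CPM in the floxed heterozygotes and 90.8, 169.6 and 124 CPM in the Nes-cre knockouts. The genotypes overlapped at both ages, and the control groups differed 54.0-fold (95% interval 30.2 to 96.3, edgeR adjusted p 6.88e-07). Mog, on chromosome 17 from 37010743 to 37023398, encodes a glycoprotein on the outermost surface of the sheath and is known as a late marker of myelination. It stood at 12.7, 10.2 and 12.2 CPM in the P0 wild types and at 9.78, 12.6 and 14.9 CPM in the Cmv-cre knockouts. Its P14 values were 64.7, 73.0 and 42.2 CPM in the floxed heterozygotes and 28.6, 65.9 and 36.8 CPM in the Nes-cre knockouts. Mog had the lowest rise of the 9 point estimates, 5.12-fold (95% interval 2.90 to 9.03, edgeR adjusted p 3.65e-04). Its P0 counts, 123 to 246 per library, were well above those of Mag, Mal and Mobp.

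Cldn11, on chromosome 3 from 31149920 to 31164324, encodes the tight junction protein that seals the spaces between myelin layers. It stood at 12.8, 8.91 and 9.58 CPM in the P0 wild types and at 10.8, 7.63 and 8.83 CPM in the Cmv-cre knockouts. In the P14 hippocampus it stood at 156, 182 and 119 CPM in the floxed heterozygotes and 79.4, 162 and 117 CPM in the Nes-cre knockouts. The control groups differed 14.7-fold (95% interval 8.88 to 24.3, edgeR adjusted p 4.68e-06), with overlap of the genotypes at both ages. Ugt8a, on the same chromosome from 125865271 to 125938619, encodes the enzyme that makes galactosylceramide, the main glycolipid of myelin. It stood at 6.81, 7.29 and 5.65 CPM in the P0 wild types and at 6.52, 5.55 and 5.57 CPM in the Cmv-cre knockouts. At P14 the levels were 124, 147 and 109 CPM in the floxed heterozygotes and 65.5, 137 and 93.2 CPM in the Nes-cre knockouts. Ugt8a also overlapped between genotypes at both ages, and the control groups differed 19.4-fold (95% interval 12.2 to 30.8, edgeR adjusted p 7.35e-07).

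Opalin, on chromosome 19 from 41061710 to 41077113, encodes a transmembrane protein of oligodendrocytes. It had 2, 0 and 1 counts in the P0 wild types and 0, 0 and 1 counts in the Cmv-cre knockouts. P14 levels were 11.5, 12.1 and 5.38 CPM in the floxed heterozygotes and 4.97, 10.97 and 6.23 CPM in the Nes-cre knockouts. It was the lowest member in every group. From 3 counts in all P0 wild types and 518 in all P14 controls, the ratio of the summed levels was 135, with an exact 95% counting interval of 45.9 to 656 that leaves out variation between animals.

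**Figure D1:**
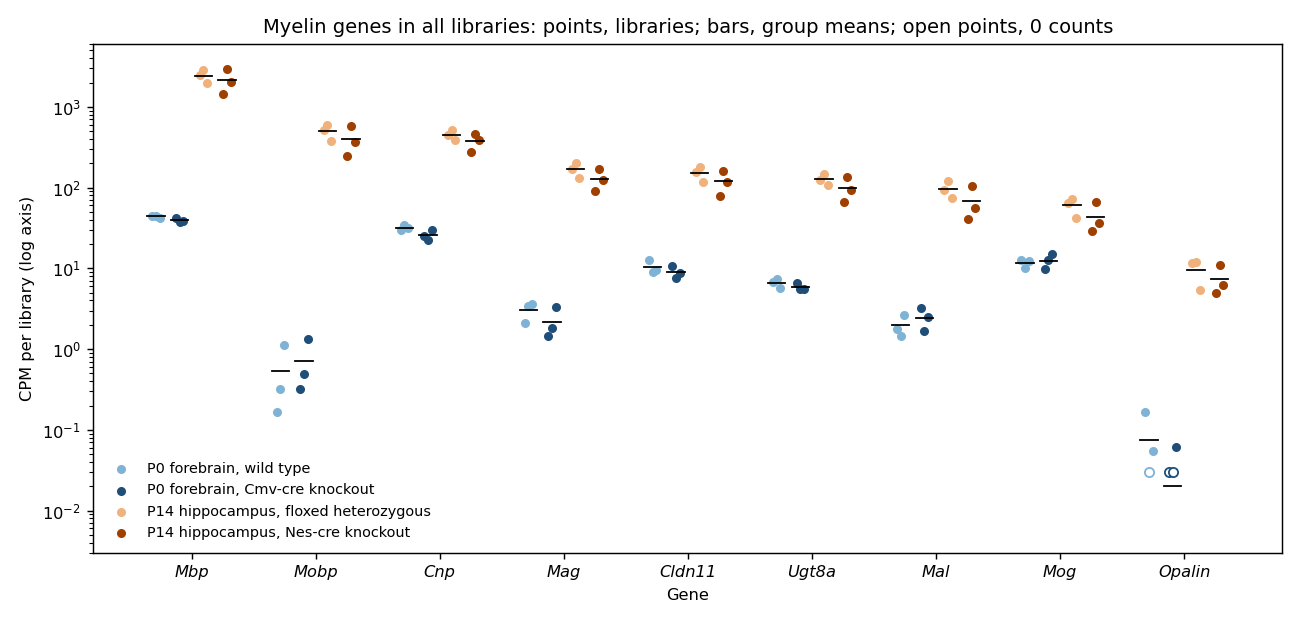
CPM of each myelin gene in each library, on a log axis, with the group means as bars and libraries with 0 counts as open points at an arbitrary low position. In all 9 genes the 6 P14 libraries sit above the 6 P0 libraries, and the P14 genotypes overlap.

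The order of the members by RPKM differed between the 2 control groups. In the P0 wild types it ran from Cnp (8.76 ± 0.563 RPKM, SD, n = 3) through Mog (6.86 ± 0.770), Cldn11 (5.59 ± 1.13), Mbp (5.21 ± 0.180), Ugt8a (1.45 ± 0.186), Mag (0.745 ± 0.200), Mal (0.706 ± 0.224) and Mobp (0.0778 ± 0.0735) to Opalin (0.0253 ± 0.0291). Mog and Cldn11, Cldn11 and Mbp, Mag and Mal, and Mobp and Opalin overlapped in their libraries and are not ordered beyond their spread. In the P14 controls Mbp came first at 286 ± 50.4 RPKM, then Cnp at 124 ± 18.4, Cldn11 at 81.6 ± 17.1 and Mobp at 72.4 ± 15.6. Mag (41.2 ± 8.72) overlapped Mog (35.2 ± 9.34), Mog overlapped Mal (34.5 ± 8.36), and Mal overlapped Ugt8a (27.9 ± 4.25). Mag did not overlap Mobp, and Ugt8a did not overlap Opalin, which was last at 3.28 ± 1.26. Cldn11 and Mobp overlapped as well. Mbp thus moved from the fourth place to the first, Mobp from the eighth to the fourth, and Mog from the second to the sixth. These places depend on the exon length used. With the longest transcript as the length, Mbp was at 9.20 RPKM in the P0 wild types, between Cnp at 10.98 and Mog at 6.86, and Mobp at 151 RPKM came close below Cnp at 155 RPKM in the P14 controls.

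The P0 comparison asked whether the members differ in the forebrain when exon 7 is lost from the whole body. None of the 7 members tested was called, against 0.909% of the 16176 genes tested, and Mobp and Opalin had too few counts to enter the fit. The log2 fold changes ran from -0.45 for Mag to 0.28 for Mal, with a median of -0.16 for the members and -0.0003 for all genes. At an unadjusted p under 0.05 stood 1 member, Cnp, and 2609 genes in all.

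Cnp had the lowest adjusted p of the 7. It was at 31.9 ± 2.05 CPM in the wild types and 25.6 ± 3.87 CPM in the Cmv-cre knockouts (SD, n = 3 each), which is -0.32 on the log2 scale, SE 0.11, with a 95% interval of -0.56 to -0.07 (edgeR adjusted p 0.196). Cnp and Mbp had all knockout libraries below all wild-type libraries, as did 11.1% of all genes tested. Mbp had a log2 fold change of -0.16 (SE 0.09, 95% interval -0.35 to 0.03, edgeR adjusted p 0.408). Cnp was called without knockout library 3 (log2 fold change -0.44, edgeR adjusted p 0.0210) and in the 4 P0 libraries numbered 1407 to 1410 (-0.45, edgeR adjusted p 0.00569), a subset chosen after seeing the data. Over all genes tested, these fits called 775 of 16528 and 2107 of 16271. Among the other members, Mag was at -0.45 with an SE of 0.32, Cldn11 at -0.20 with an SE of 0.18, Ugt8a at -0.16 with an SE of 0.18, Mog at 0.09 with an SE of 0.16 and Mal at 0.28 with an SE of 0.32. All of their 95% intervals held 0, and the widest ran from -1.15 to 0.24, for Mag.

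The P0 libraries fall into 2 runs of library numbers, 1407 to 1410 and 1415 to 1416, and the second holds wild type 3 and knockout 3. Mobp stood apart there, at 1.11 and 1.33 CPM against 0.168 to 0.497 CPM in the other 4 libraries. With genotype as a term, the log2 difference between the runs was 1.88 for Mobp (SE 0.46, edgeR adjusted p 0.149) and 0.69 for Mag (SE 0.28, edgeR adjusted p 0.333). None of the 8 members tested was called, against 0.132% of 16689 genes. This comparison was also chosen after seeing the data, and what the numbers stand for is not given in the labels.

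The P14 comparison asked the same in the P14 hippocampus, where Nes-cre removes the exon from neural progenitors and their descendants. All 9 members had a lower fitted level in the Nes-cre knockouts and none was called, against 1.99% of the 17208 genes tested. The log2 fold changes were -0.49 for Mal, -0.44 for Mog, -0.38 for Mag, -0.36 for Opalin, -0.35 for Ugt8a, -0.34 for Cldn11, -0.31 for Mobp, -0.26 for Cnp and -0.17 for Mbp. Their median was -0.35, against -0.007 over all genes. The edgeR adjusted p-values lay between 0.637 for Mag and 0.864 for Mbp. No member reached an unadjusted p under 0.05, which 2622 genes did.

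The errors of these fold changes were wide. The SE ran from 0.21 for Cnp to 0.44 for Mal, with a median of 0.32 against 0.12 over all genes tested. The 95% interval of Mog ran from -1.55 to 0.67 and that of Mal from -1.69 to 0.71 on the log2 scale. For every member but Cnp (-0.79 to 0.28) the interval held a fall of 1 log2 unit as well as a rise. No member had all knockout libraries below all controls, which 10.6% of all genes had.

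**Figure D2:**
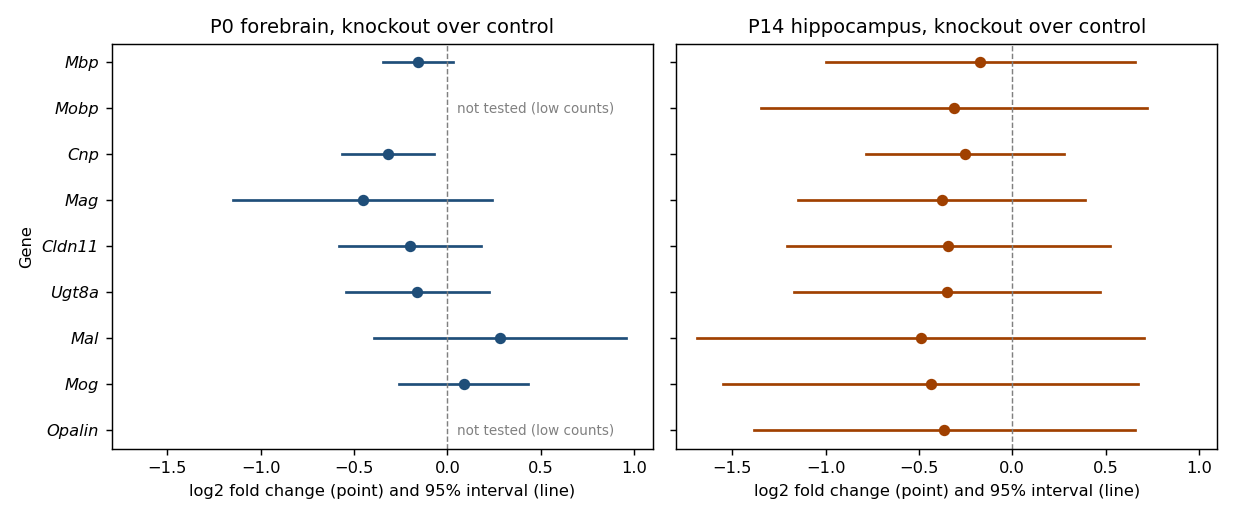
Log2 fold change of knockout over control for each myelin gene, as points, with 95% intervals as lines, at P0 and at P14. At P14 all 9 points lie below 0 with intervals that cross it, and at P0 the interval of Cnp, -0.56 to -0.07, is the only one of 7 that does not reach 0.

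The 6 P14 libraries took nearly the same order in every member. The order and medians here come from log2 CPM scaled over these 6 libraries alone, with a prior count of 2. The control mean is the mean of the controls' log2 CPM. Nes-cre knockout 1 was lowest for all 9 members, at a median of -0.90 log2 units from the control mean. Floxed heterozygote 2 was highest for 8 members, at a median of 0.29, and knockout 2 was highest for Mbp. Knockout 2, at a median of 0.18, was among the top 3 libraries for all 9 members, with floxed heterozygotes 1 and 2. Floxed heterozygote 3 (median -0.33) and knockout 3 (median -0.41) took the fourth and the fifth place for all 9. The libraries therefore fell into levels that crossed the genotypes, and 1 knockout lay with the higher controls and 1 control with the lower knockouts. The members together made up 0.369%, 0.441% and 0.306% of the counts in floxed heterozygotes 1, 2 and 3, and 0.216%, 0.428% and 0.298% in knockouts 1, 2 and 3.

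**Figure D3:**
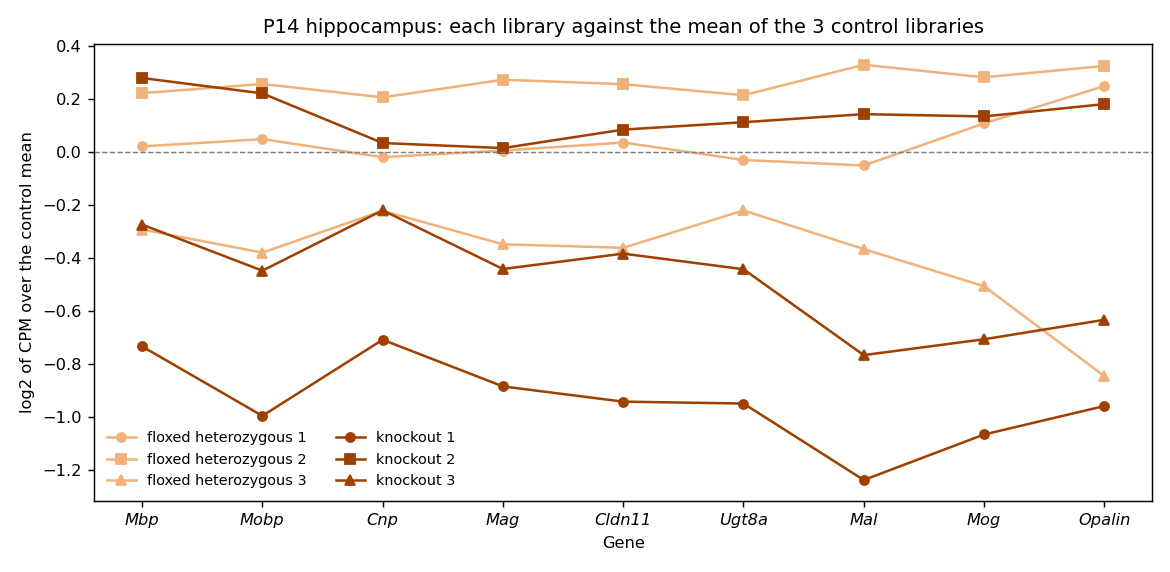
Log2 ratio of each P14 library's CPM to the mean CPM of the 3 controls, for each myelin gene, with 1 line per library. The lines run nearly in parallel, with knockout 1 lowest throughout, knockout 2 beside controls 1 and 2, and control 3 beside knockout 3.

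The spread within the P14 groups was shared among the members. Log2 CPM was scaled here over the 6 libraries of each age, with a prior count of 2. Over the 36 pairs of members, Pearson's r of the deviations from the group means over the 6 libraries ran from 0.840 to 0.999, with a median of 0.974. These values describe 6 libraries that all members share. The SD of log2 CPM within groups was 0.42 at the median of the members, from 0.30 for Cnp to 0.61 for Opalin, against a median of 0.12 over genes whose log2 CPM averaged 1 or more. At P0 the 21 pairs of tested members had r from -0.69 to 0.88, with a median of 0.10, and a median SD of 0.24 against 0.14 for such genes.

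Leaving out single libraries moved the P14 values without giving a call. Without knockout 1 the log2 fold changes ran from -0.23 to 0.04, with Mbp on the other side of 0. Without knockout 2 they ran from -0.97 to -0.43, with the lowest edgeR adjusted p at 0.157. Without floxed heterozygote 2 they ran from -0.29 to -0.04, and without floxed heterozygote 3 from -0.65 to -0.29.

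Choroid plexus markers also varied between the P14 libraries, but in another order. Their summed level was 299, 1352 and 3406 CPM in the floxed heterozygotes and 1866, 2623 and 1759 CPM in the knockouts over 11 genes, none called. The 10 dentate granule cell genes summed to 639.5, 690.6 and 639.1 CPM in the floxed heterozygotes and 460.2, 435 and 477 CPM in the knockouts, and 8 of them were called lower, among them Dsp, Tdo2, C1ql2, Prox1, Lct, Stxbp6, C1ql3 and Calb1. Striatal genes summed to 438 to 464 CPM in the floxed heterozygotes and 497 to 601 CPM in the knockouts, with Drd1 called higher among 10. Thalamic genes summed to 260 to 320 CPM and 231 to 251 CPM, with Ramp3 called higher and Lef1 and Calb2 lower among 9. Over all 17208 genes tested at P14, 209 were called higher and 133 lower. Brain endothelial genes summed to 303, 309 and 287 CPM in the floxed heterozygotes and 245, 256 and 249 CPM in the knockouts, without overlap. All 10 had a negative log2 fold change (median -0.22), none called. Of all single genes tested at P14, 10.6% had every knockout library below every control, and 51.5% had a negative value. Of 11 meningeal genes 9 were negative (median -0.30), none called. The part of these lists in the myelin genes' values was not tested. Among Schwann cell markers, Pmp2 had 0 counts in all groups, and none of the 5 tested was called at either age.

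The difference between the genotype effects at P14 and at P0 was tested for all 9 members in the fit to 12 libraries. None was called, against 1.79% of 18189 genes. The log2 differences were -0.77 for Mal, -0.66 for Mobp, -0.54 for Mog, -0.21 for Ugt8a, -0.16 for Cldn11, -0.03 for Mbp, 0.05 for Mag, 0.05 for Cnp and 0.92 for Opalin, with edgeR adjusted p from 0.668 to 0.980. The SE was 1.32 for Mobp and 1.79 for Opalin, which had few or no counts at P0, and 0.27 to 0.81 for the others.

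The genes whose log2 CPM most resembled the members' mean profile over the 6 P14 libraries included Tspan15 (r = 0.997), Tspan2 (0.988), Gsn (0.986), Ermn (0.981), Samm50 (0.980) and Fpgt (0.979), among 13859 genes. For r, log2 CPM was scaled over the 6 P14 libraries alone, with a prior count of 2. Tspan15 and Tspan2 encode tetraspanin membrane proteins, and Ermn encodes a cytoskeletal protein of myelinating oligodendrocytes. Ermn stood at 21.4, 24.8 and 15.7 CPM in the floxed heterozygotes and 8.25, 19.98 and 13.0 CPM in the knockouts, with knockout 1 lowest and floxed heterozygote 2 highest, as in Mog and Mag. Samm50 followed a similar order over a much narrower range, from 69.4 to 79.6 CPM. An r of at least 0.9 was found for 10 of 31 other myelin genes (32.3%) and for 110 of all genes (0.794%), over libraries that all of them share.

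Other genes of myelin and mature oligodendrocytes were described from a list of 34. Between the control groups 31 of 33 tested were called higher at P14 and 1 lower, with a median log2 difference of 2.37. Of all genes tested there, 32.3% were called higher. Large differences were those of Tmem125 (5.46), Gjc3 (5.41), Ninj2 (4.88), Tmem88b (4.01), Pllp (3.98) and Enpp2 (3.21). Enpp2 is also a choroid plexus gene, and its 148, 371 and 816 CPM in the P14 controls followed the order of the choroid sums above and not that of the members. The part of choroid plexus in its difference was not tested. The gene called lower, named after its value was seen, was Cntn2 (-1.93), an adhesion protein of axons and of the sheath beside the node. Between the P14 genotypes none of 33 was called, 30 had a negative log2 fold change and the median was -0.21, or 22 of 33 and -0.09 without knockout 1. Without knockout 2 the median was -0.45 and 1 was called lower, as were 63 of all 17506 genes. Without floxed heterozygote 3 the median was -0.29 and 2 were called lower, as were 787 of all 17491 genes. At P0 none of 26 was called and the median was -0.17. DESeq2, the GC content offset, the fit without a filter and the fit on all 12 libraries each called 1 lower. In the 4 P0 libraries of the first run, a subset chosen after seeing the data, 4 were called lower, as were 1160 of all 16271 genes. Without P0 knockout 3, 2 were called lower, as were 521 of all 16528 genes. In the fit with a term for the 2 runs of library numbers, 1 was called lower at P0: Adamts4 (-0.73, edgeR adjusted p 0.0296), a protease, named after its value was seen. That fit called 317 of all 16176 genes tested lower.

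Genes of earlier stages of the lineage differed between the controls as well. Of 14 premyelinating genes 12 were called higher at P14 (median log2 difference 2.57), among them Neu4 (6.08), Enpp6 (6.0), Gpr37l1 (5.40) and Bcas1 (4.52). Of 15 precursor genes 9 were called higher and 3 lower (median 0.82), with Gpr17 at 2.85 and Cacng4 at -2.09. Of all 18189 genes tested, 5877 were called higher and 5765 lower. Between the P14 genotypes none of the premyelinating genes was called (median -0.10). Xylt1, which starts the sugar chains of proteoglycans, was called higher among the precursor genes, at 66.4, 70.0 and 87.1 CPM in the floxed heterozygotes and 104, 98.4 and 96.8 CPM in the knockouts (log2 fold change 0.43, SE 0.10, edgeR adjusted p 0.0352), and 11 of the 15 had a positive value (median 0.09). Over all 17208 genes tested at P14, 209 were called higher and 51.5% had a negative value. At P0, 9 of 12 premyelinating genes (median -0.31) and 14 of 15 precursor genes (median -0.22) had a negative value, and none was called. When the 2 runs of library numbers were given a term, 3 precursor genes were called lower at P0: Gpr17 (-0.78, edgeR adjusted p 0.0122), Ptprz1 (-0.34, edgeR adjusted p 0.0154) and Olig1 (-0.35, edgeR adjusted p 0.0422), named after their values were seen. That fit called 317 of all 16176 genes tested lower. Gpr17 is also the 1 premyelinating gene called in that fit. DESeq2 and the fit without a filter also called 3 precursor genes lower, and the GC content offset 2. Over all genes tested, DESeq2 called 267 of 16176 lower, the fit without a filter 411 of 31406, and the offset 254 of 16176. In the 4 P0 libraries of the first run, 5 precursor and 4 premyelinating genes were called lower, as were 1160 of all 16271 genes. Without P0 knockout 3, 2 precursor genes and 1 premyelinating gene were called lower, as were 521 of all 16528 genes. Some genes, such as Gpr17 and Sox10, stand in more than 1 list.

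Regulators of the lineage were split by their known direction. Of 15 activators of oligodendrocyte differentiation 10 were called higher and 3 lower at P14 between the controls. Over all 18189 genes these counts were 5877 and 5765. None of the activators was called between the genotypes at either age. Myrf stood at 2.94, 3.81 and 1.72 CPM in the P0 wild types and at 42.3, 46.1 and 45.7 CPM in the P14 controls, a log2 difference of 4.04. Its P14 knockout values were 29.9, 46.1 and 36.9 CPM, with knockout 1 lowest as in the members (log2 fold change -0.24, edgeR adjusted p 0.428). Sox10 stood at 44.4, 51.6 and 51.1 CPM in the P14 controls and at 49.1, 61.8 and 56.5 CPM in the knockouts (0.20, edgeR adjusted p 0.353). Knockout 1, lowest for every member, was thus not the lowest for Sox10.

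Among 10 inhibitors of myelination, 4 were called higher and 4 lower at P14 between the controls. Over all 18189 genes these counts were 5877 (32.3%) and 5765. In the P14 knockouts 2 inhibitors were called higher, as were 209 of all 17208 genes tested. Lingo1, a receptor component that restrains oligodendrocyte maturation and is also made by neurons, stood at 299.996, 287 and 319 CPM in the floxed heterozygotes and 364, 394 and 376 CPM in the knockouts (log2 fold change 0.34, SE 0.07, edgeR adjusted p 0.0206). Sox5, a transcription factor of precursors and of deep-layer cortical neurons, stood at 37.1, 39.6 and 42.5 CPM and at 50.1, 47.7 and 54.7 CPM (0.36, SE 0.09, edgeR adjusted p 0.0470). The groups did not overlap for either gene. The calls of Lingo1, Sox5 and Xylt1 were each lost without knockout 1, 2 or 3 or floxed heterozygote 1 or 2. Processing choices ended them too: the larger strand column for Lingo1 and Sox5, non-robust fitting for Sox5 and Xylt1, the GC content offset for Lingo1 and Xylt1, and 1 fit on all 12 libraries for Xylt1. Over the 16 alternatives, Lingo1 and Sox5 were each called in 9 and Xylt1 in 8. In the P0 forebrain neither inhibitor was called, at 0.01 for each.

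Genes of the galactolipid pathway, which holds Ugt8a, included 7 of 9 called higher at P14 between the controls and none lower. Of all genes tested there, 32.3% were called higher. Fa2h, which makes the hydroxylated fatty acids of myelin lipids, had a log2 difference of 6.10, and Gal3st1, which makes sulfatide, one of 2.26. Galc and Arsa, which break these lipids down in lysosomes, were at 0.13 each and not called. None of the 9 was called between the genotypes, and their median was -0.16 at P14.

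**Figure D4:**
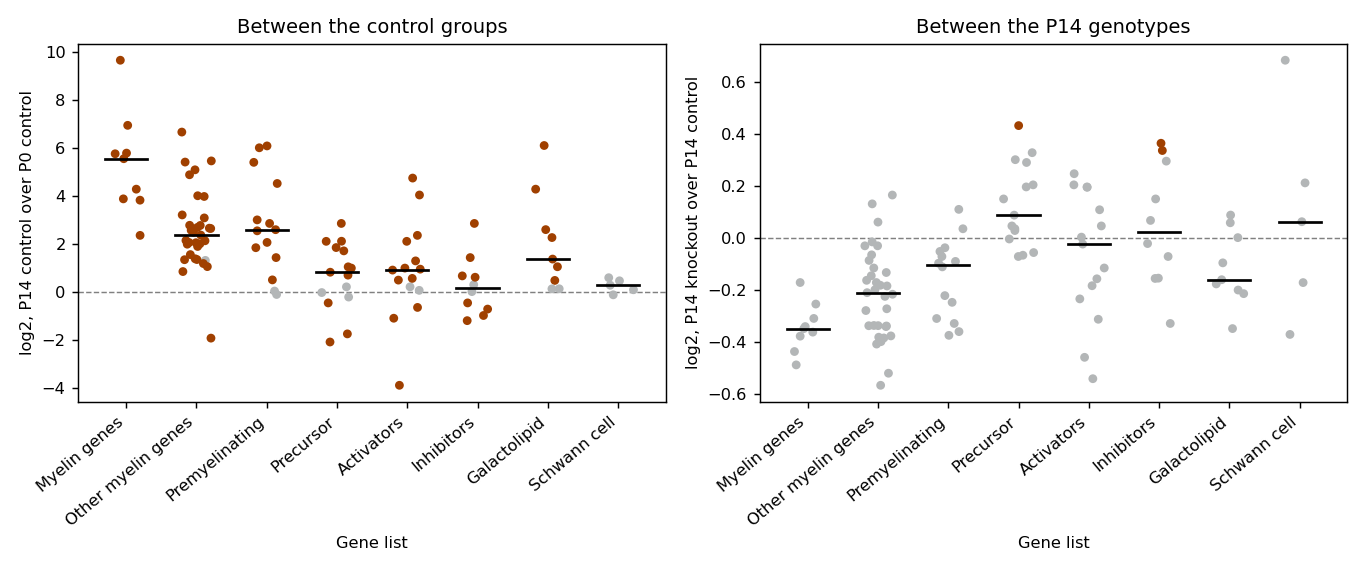
Log2 differences of single genes (points, filled in brown where called) and list medians (bars) for the myelin genes and related lists, between the control groups and between the P14 genotypes. The members' median is 5.55 on the left and -0.35 on the right, where none of their points is called.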

How the data were processed

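RNA was sequenced from 12 mice in 4 groups of 3, as pairs of 150 bp reads per the labels' protocols. The deposited files hold raw counts per Ensembl gene, made by the authors with STAR 2.7.5a on GRCm38 per the submitters' processing notes, which also name edgeR 3.12. The unstranded column was used, since the smaller strand column held 49.9% to 50.0% of the sum of both. Counts cover 11247150 to 23340621 reads a library. Symbols and exon lengths came from GENCODE vM21 on GRCm38. Fits to the 6 libraries of each age used edgeR 4.0.16 (filterByExpr, TMM, robust glmQLFit, glmQLFTest) in R 4.3.3, with Benjamini-Hochberg adjustment at 0.05. The difference between ages and the comparison of controls came from 1 fit to all 12. The tests were tried on simulated data. The SE came from the fold change and its F statistic, and read counts carry no molecular identifiers, so counting intervals cover counting error only. Replicates differed beyond sampling noise (chi-square per degree of freedom 3.10 to 19.3).

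The members and gene lists were chosen with earlier results of these data known. All members are named. Of other lists, called genes are named up to 8 a list by size of change, otherwise up to 4 of the most abundant; the 8 genes most like the members by r were eligible as well, some genes that meet the rule are not reported here, and other genes were chosen after their values were seen. Of 199 listed genes 197 matched. The lists of meningeal, endothelial, microglial, astrocyte and general neuronal genes had no call at P14, and at P0 had 0, 0, 1, 1 and 3 genes called lower, while the choroid, dentate, striatal and thalamic lists had 0, 2, 1 and 1. Alternatives were the strand column, RLE and upper-quartile scaling, DESeq2 1.42.0, other filters, non-robust fitting, a fit to all libraries, the number series as a term, a GC content offset, another threshold, another gene length and leaving out each library.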

Additional observations from a re-analysis of the deposited data

Results flagged for a closer look

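The genotype effect at P14 minus that at P0 passed the threshold of the interaction test for the genes of the related lists named here and for none of the 9 myelin genes. Cryab, a small heat shock protein of mature oligodendrocytes and astrocytes, had a difference of 0.69 on the log2 scale (edgeR adjusted p 0.0466). It stood at 7.39, 7.13 and 7.03 CPM in the P0 wild types, 4.69, 5.14 and 4.72 CPM in the Cmv-cre knockouts, 30.6, 32.1 and 26.9 CPM in the P14 controls and 29.6, 36.5 and 31.2 CPM in the Nes-cre knockouts. The P0 libraries did not overlap and the P14 libraries did, though neither effect was called on its own (edgeR adjusted p 0.121 and 0.596). Cryab was called in 8 of 21 alternatives, all with the same direction.

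The others named are the striatal genes Drd1 (1.61) and Rgs9 (0.99), Ramp3 of the thalamic list (1.13), Prox1 (-0.69) and Pdzd2 (0.80) of the dentate list, and P2ry12 of microglia (0.90).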

How the results depend on the processing

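No myelin gene was called at P14 or in the difference in any alternative, and all 9 were called between the control groups wherever tested. At P0 the count of called myelin genes was 1 (Cnp) in the 4 libraries of the first number series and ranged from 0 to 1 with 1 library left out. There Mog was at -0.031, and its log2 fold change ranged from -0.070 to 0.24 with 1 library left out. Mbp at P14 ranged from -0.47 to 0.038 so. Of the 144 alternative values at P14, 143 kept direction and call. The differences between ages ranged, with 1 library left out, from -0.33 to 0.18 for Mbp, -0.21 to 0.54 for Mag, -0.13 to 0.22 for Cnp, -1.91 to 0.26 for Mobp, -0.53 to 0.014 for Ugt8a, -0.45 to 0.063 for Cldn11 and -0.018 to 2.97 for Opalin, and Mag was at -0.20 in the larger strand column. The genes called at P0 (147) became 374 with DESeq2, 625 without a filter, 50 with non-robust fitting, 369 with the GC content offset, 462 at an adjusted p under 0.1, 284 in 1 fit on all 12 libraries, 465 with the number series as a term, 2107 in the 4 libraries, and 1 to 775 with 1 library left out. Those at P14 (342) became 534 with DESeq2, 814 without a filter, 684 under 0.1, and 104 to 1808. Those in the difference (326) became 205 in the larger strand column, 531 with DESeq2, 646 without a filter, 563 under 0.1, and 125 to 905. The cause was not tested. With the longest transcript as length, 19 of 36 levels moved by more than 1 SD. No paired analysis was possible because the replicate numbers follow accession order. Depth limits Mobp and Opalin at P0.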
